A study of Rattus norvegicus with 24 samples.

Results

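The mitochondrial genome encodes the core of the respiratory chain, and 6 of its genes that build complexes III, IV and V were followed here through plantaris muscle under load. They were taken by Ensembl ID from 31998 genes of the deposited count table: mt-Cyb (ENSRNOG00000031766) for complex III, mt-Co1 (ENSRNOG00000034234), mt-Co2 (ENSRNOG00000030371) and mt-Co3 (ENSRNOG00000030700) for complex IV, and mt-Atp6 (ENSRNOG00000031979) and mt-Atp8 (ENSRNOG00000033299) for complex V. The table lists IDs without names, so the gene names are those with which the genes were chosen. All 6 passed the filter on low counts. The libraries came from plantaris, a calf muscle, of female rats aged 14 months, of generation 19 of the LRT (low response to endurance training) and HRT (high response) lines. The 4 groups, of 6 libraries each, were LRT overload, LRT control, HRT overload and HRT control. In the overload groups the gastrocnemius and soleus of one side had been removed, which loads the plantaris, and the muscle was collected after 14 days. The source of the control muscles (other rats, or the unoperated leg of the same rats) is not given in the labels. Since IDs carry no names, markers of muscle and of other cell types were not analysed here.

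Complex III passes electrons to cytochrome c, complex IV (cytochrome c oxidase) passes them to oxygen, and complex V (ATP synthase) uses the proton gradient that the chain builds to make ATP. The mitochondrial genome is transcribed into long precursors that are cut into single messages, so its mRNAs share a promoter region while each has its own stability. All subunits encoded there work beside nuclear-encoded partners. Skeletal muscle is rich in mitochondria, and the amount of these transcripts in whole muscle depends on the number of mitochondrial genomes, their transcription and the decay of the messages. In bulk muscle, fewer cells of a type and less RNA per cell cannot be told apart.

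Library totals ran from 26997674 to 34254957 estimated counts. The least counted of the genes, mt-Atp8, had 1593 to 4068 counts per library, and the other 5 genes had at least 20688 counts in each library, so counting error was small beside the spread between libraries. The RNA integrity number (RIN) averaged higher after overload, at 8.67 ± 0.258 in LRT overload and 8.28 ± 0.147 in LRT control, and at 8.97 ± 0.327 in HRT overload and 8.27 ± 0.216 in HRT control (SD, n = 6 each). The TMM (trimmed mean of M values) scaling factor, which multiplies a library's total before counts are scaled, also averaged higher after overload. It was 1.05 ± 0.0701 in LRT overload and 0.883 ± 0.0319 in LRT control, and 1.16 ± 0.115 in HRT overload and 0.942 ± 0.0134 in HRT control.

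These genes held a smaller mean share of the counts after overload in both lines. Together they made up 2.98% ± 0.299 of all counts in LRT overload and 3.82% ± 0.741 in LRT control (SD, n = 6 each), and 3.15% ± 0.666 in HRT overload and 5.03% ± 0.47 in HRT control. In LRT the ranges overlapped, with 2.47% to 3.32% after overload and 2.82% to 4.88% in control, and 1 of the 6 overloaded libraries lay below every control library. In HRT they did not, with 2.35% to 3.79% after overload and 4.38% to 5.83% in control. These shares are of counts, not corrected for transcript length, and most of each is mt-Co1.

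**Figure D1:**
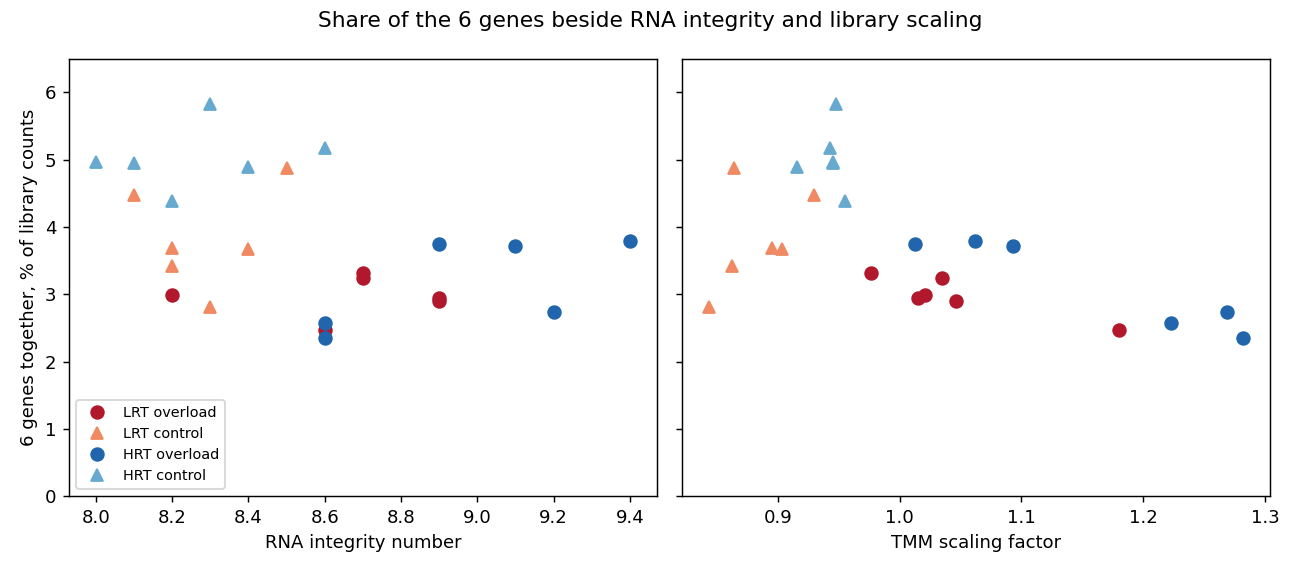
Summed counts of the 6 genes as a percentage of all counts of a library (y axis, both panels) against the library's RIN (left) and its TMM scaling factor (right). Each point is 1 library. HRT control libraries lie at 4.38% or above, and the overloaded libraries of both lines at 3.79% or below.

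The first question was what overload did to each gene within a line. In LRT muscle 5 of the 6 genes fell after overload, against a background in which 28.3% of the 16661 genes tested fell (edgeR's quasi-likelihood test with Benjamini-Hochberg adjustment over all genes tested, threshold 0.05). The median log2 fold change was −0.59 over the 6 genes and −0.02 over all genes tested. In HRT muscle all 6 fell, where 31.2% of all genes tested did, with medians of −0.92 over the 6 genes and −0.03 over all genes. Falls were commoner among abundant genes: of the 100 with the highest mean CPM, 5 of the 6 genes among them, 58 fell in LRT and 74 in HRT. The values below are CPM, that is, counts scaled to a common library total with the TMM factors, and groups are described by their lowest, median and highest library.

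Complex III is represented by mt-Cyb, cytochrome b, which carries electrons from ubiquinol within the complex. In LRT it was at 866, 1081 and 1341 CPM after overload and at 1042, 1440 and 1962 CPM in control. The groups overlapped, and 2 of 6 overloaded libraries lay below every control library. The log2 fold change was −0.40 ± 0.18 (SE; 95% interval −0.77 to −0.026) and did not pass the threshold (edgeR adjusted p = 0.063). The call was borderline: it passed with RIN as a covariate (adjusted p = 0.0387) and without LRT overload replicate 4 (0.0431), LRT control replicate 3 (0.0292) or LRT control replicate 5 (0.0373), and the edgeR, DESeq2 and limma-voom adjusted p ran from 0.0292 to 0.364 over 22 other settings. In HRT it was at 532, 846 and 1067 CPM after overload and at 1224, 1354 and 1642 CPM in control, with no overlap. There the log2 fold change was −0.75 ± 0.181, a fall to 0.596 of the control level (edgeR adjusted p = 0.000936).

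Complex IV has its catalytic core made in the mitochondrion. The product of mt-Co1 holds the haem and copper site where oxygen is reduced. In LRT its counts were 14828, 20641 and 23587 CPM after overload and 24391, 29246 and 39912 CPM in control. In HRT they were 13855, 20839 and 27855 CPM after overload and 34125, 39973 and 45899 CPM in control. Neither line's groups overlapped; of all genes tested, 15.5% in LRT and 17.1% in HRT had every overloaded library below every control library. The log2 fold change was −0.58 ± 0.168 in LRT (SE; edgeR adjusted p = 0.00477) and −0.93 ± 0.168 in HRT (edgeR adjusted p = 4.28e-05), that is, 0.668 and 0.525 of the control level.

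Electrons enter complex IV through the copper centre of the mt-Co2 product. In LRT mt-Co2 was at 1434, 2120 and 2362 CPM after overload and at 2525, 3203 and 4461 CPM in control. In HRT it was at 1313, 2085 and 2752 CPM after overload and at 3454, 4111 and 4749 CPM in control. Again all overloaded libraries lay below all control libraries of their line in CPM. The fall was to 0.612 of control in LRT (log2 fold change −0.71 ± 0.173, SE; edgeR adjusted p = 0.00123) and to 0.507 in HRT (−0.98 ± 0.174, edgeR adjusted p = 3.37e-05).

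The remaining core subunit, mt-Co3, had the lowest log2 fold change of the 6 genes in HRT. In LRT it was at 2805, 3796 and 4859 CPM after overload and at 4081, 5436 and 7707 CPM in control, with 5 of 6 overloaded libraries below every control library. In HRT it was at 1866, 2902 and 3740 CPM after overload and at 5097, 5578 and 6599 CPM in control, with no overlap. Its log2 fold changes were −0.63 ± 0.18 in LRT (SE; edgeR adjusted p = 0.00427) and −0.998 ± 0.181 in HRT (edgeR adjusted p = 4.3e-05).

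Complex V has a pair of subunits in its membrane part that are made in the mitochondrion. The product of mt-Atp6 lines the proton channel, and that of mt-Atp8 is a small subunit beside it; their coding regions overlap on a shared message, so the division of reads between them is uncertain. In LRT mt-Atp6 was at 952, 1354 and 1722 CPM after overload and at 1301, 1910 and 2694 CPM in control, and the groups overlapped (2 of 6 overloaded libraries below every control library). In HRT it was at 697, 1089 and 1444 CPM after overload and at 1815, 2006 and 2442 CPM in control, without overlap. The log2 fold change was −0.59 ± 0.191 in LRT (SE; edgeR adjusted p = 0.0109) and −0.92 ± 0.192 in HRT (edgeR adjusted p = 0.000232).

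For mt-Atp8 the LRT libraries were at 48.3, 61.9 and 88.2 CPM after overload and at 65.2, 86.4 and 138.9 CPM in control, with 4 of 6 overloaded libraries below every control library. Its HRT libraries were at 39.9, 63.6 and 80.8 CPM after overload and at 105.6, 115.8 and 129.6 CPM in control, with no overlap. The log2 fold change was −0.55 ± 0.178 in LRT (SE; edgeR adjusted p = 0.0116) and −0.92 ± 0.179 in HRT (edgeR adjusted p = 0.000114).

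**Figure D2:**
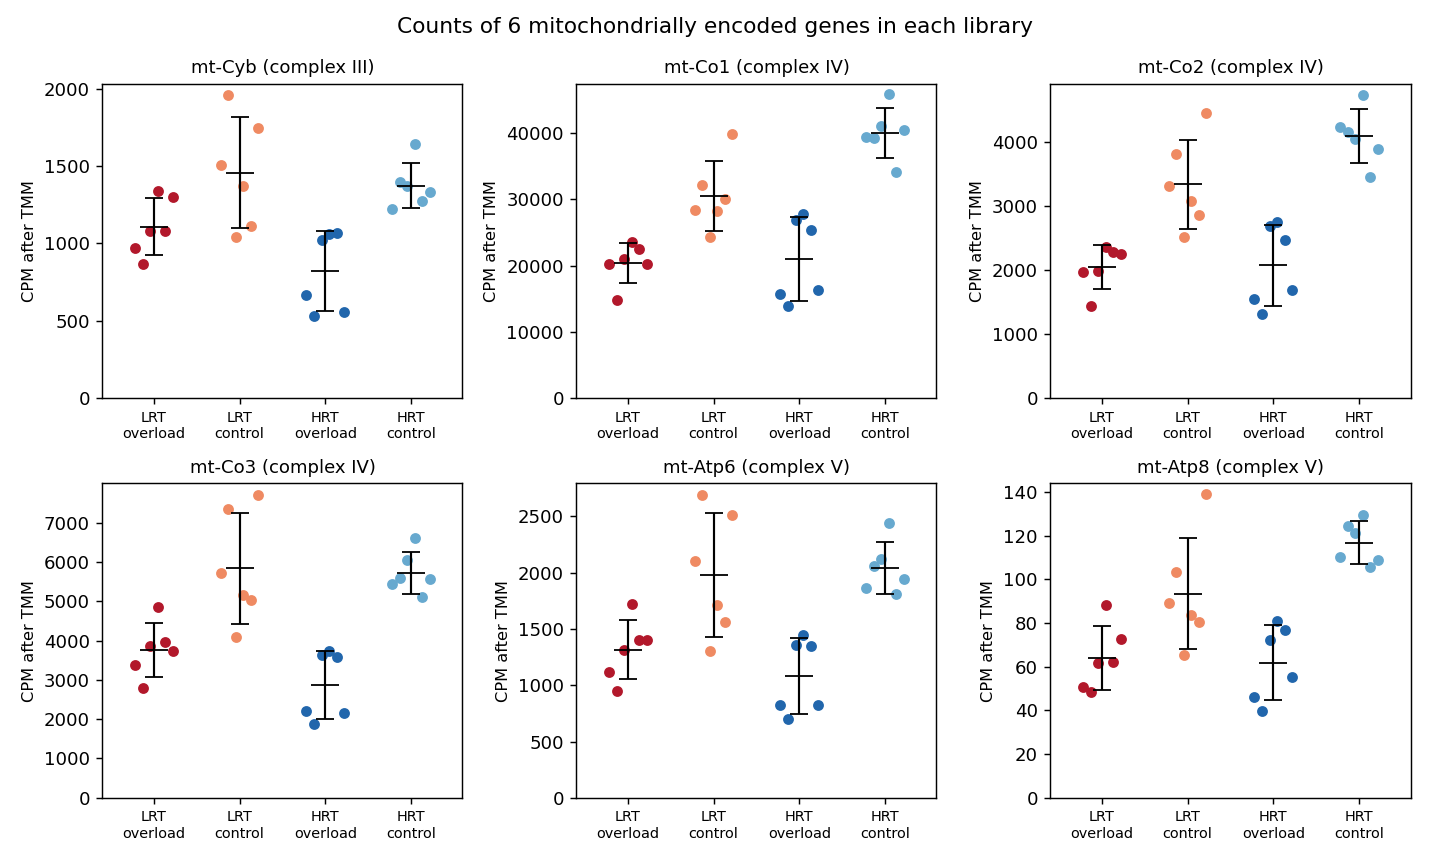
CPM after TMM scaling (y axis, linear from 0, own scale per gene) of each gene in the 24 libraries, by group. Points are libraries, the wide tick is the group mean and the bars are 1 SD (n = 6). In HRT each overloaded library lies below each control library for all 6 genes (17.1% of all genes tested), and in LRT this holds for mt-Co1 and mt-Co2 (15.5% of all genes tested).

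The size of the fall depended on how libraries were scaled, while its direction did not. With libraries scaled by their totals alone, the median gene moved up by 0.222 on the log2 scale in LRT and by 0.27 in HRT, and the falls of the 6 genes were smaller by about that much. The log2 fold changes were then −0.48 to −0.17 in LRT, where mt-Co1, mt-Co2 and mt-Co3 kept their calls (edgeR adjusted p = 0.0234, 0.00559 and 0.024) and those of mt-Atp6 (0.0636) and mt-Atp8 (0.0818) were lost. In HRT they were −0.74 to −0.49, and all 6 genes kept their calls. Of all genes tested, 11.4% were called lower in LRT and 13.5% in HRT under this scaling. The separation of groups in LRT also depended on scaling. As shares of library totals, mt-Co1 was at 1.75% to 2.33% after overload and 2.06% to 3.45% in LRT control. For mt-Co2 the LRT shares were 0.169% to 0.236% and 0.213% to 0.385%, so both genes overlapped. In HRT the shares of mt-Cyb overlapped (0.0681% to 0.1166% and 0.1157% to 0.1556%), while those of the other genes did not. How many of all genes tested parted in this way was counted for CPM after TMM only, not for shares of library totals. With RIN as a covariate all 6 genes passed in both lines, with log2 fold changes of −0.89 to −0.52 in LRT and −1.34 to −0.99 in HRT. In HRT, RIN ran from 8.6 to 9.4 after overload and from 8 to 8.6 in control, so this fit can hardly tell RIN from overload there.

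The spread between libraries also differed by group. The SD of log2 CPM was 0.235 to 0.322 over the 6 genes in LRT overload and 0.237 to 0.409 in LRT control, while the median gene had 0.214 and 0.196. In HRT it was 0.42 to 0.478 after overload and 0.12 to 0.155 in control, with 0.25 and 0.169 for the median gene. The order of the groups depended on scaling. For shares of library totals, the SD was taken as a percentage of the mean in LRT control and in HRT overload. It was 26.8% and 22.9% for mt-Cyb, 25.8% and 21.5% for mt-Co3, 29.8% and 21.9% for mt-Atp6, and 27.4% and 19.3% for mt-Atp8. For mt-Co2 it was 21.7% and 21.4%, while mt-Co1 went the other way with 17.8% and 21.1%. The 6 genes held 2.58%, 2.35% and 2.73% of counts in HRT overload replicates 1, 2 and 6, whose TMM factors were 1.22, 1.28 and 1.27. In replicates 3, 4 and 5 they held 3.79%, 3.74% and 3.71%, with factors of 1.06, 1.01 and 1.09. The low-share libraries thus had the high factors, but share and factor are computed from the same counts and are not separate observations. RIN was 8.6, 8.6 and 9.2 in replicates 1, 2 and 6, and 9.4, 8.9 and 9.1 in replicates 3, 4 and 5. Whether RIN or the factor bears on the share was not tested. What else differed between these libraries was not tested.

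The genes rose and fell together from library to library. Over the 24 libraries the 15 pairs of genes had Pearson correlations of log2 CPM between 0.806 (mt-Cyb with mt-Co1) and 0.988 (mt-Co3 with mt-Atp6). Within groups, after each group's mean was removed, the correlations were 0.859 to 0.985. The values of a pair share their library, its depth and its scaling factor, so these are descriptions. Outside the 6 genes, the closest pattern among 12223 genes whose mean log2 CPM reached 1 was that of ENSRNOG00000029707, whose log2 CPM correlated with the mean of the 6 genes with r = 0.971 over 24 libraries, followed by ENSRNOG00000030644 with r = 0.961. Of the 12223 genes, 266 had an r above 0.9. ENSRNOG00000029707 was at 829 ± 163 CPM in LRT overload and 1121 ± 288 CPM in LRT control (SD, n = 6; a log2 change of −0.44 with an edgeR adjusted p of 0.046), and at 636 ± 200 CPM in HRT overload and 1152 ± 87.6 CPM in HRT control (a log2 change of −0.86 with an edgeR adjusted p of 0.000293).

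The next question was whether the lines responded differently. The response of each gene was smaller in LRT by its point estimate, with differences (LRT minus HRT) between 0.27 for mt-Co2 and 0.37 for mt-Atp8 on the log2 scale. None of the 6 passed the test of this difference, whose adjusted p ran from 0.514 to 0.638 in edgeR. At an unadjusted p under 0.05 none passed either, where 13.6% of all genes tested did, and DESeq2 and limma-voom called 0 of the 6. Of all genes tested, 0.048% passed the adjusted threshold in edgeR. The intervals were wide: for mt-Co1 the difference was 0.35 with a 95% interval of −0.14 to 0.84, and for mt-Co2 0.27 with −0.23 to 0.77, so both an equal response and a clearly weaker one in LRT lay inside.

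Levels were then compared between lines. In overloaded muscle none of the 6 genes differed by the test (edgeR, where 3.09% of all genes tested did), and DESeq2 and limma-voom called 0. At an unadjusted p under 0.05, which 22.3% of all genes tested passed, there were 2, mt-Cyb (log2 fold change, LRT over HRT, 0.44 ± 0.18, SE; edgeR adjusted p = 0.155) and mt-Co3 (0.39 ± 0.179, edgeR adjusted p = 0.196). The values of mt-Co1 and mt-Co2 were −0.04 and −0.02, with 95% intervals of −0.39 to 0.30 and −0.38 to 0.33.

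In control muscle none of the 6 differed either (edgeR, where 1.97% of all genes tested did; DESeq2 and limma-voom called 0). At an unadjusted p under 0.05 there was 1 of the 6, near the 16.6% of all genes tested. It was mt-Co1, at 24391 to 39912 CPM in LRT control and 34125 to 45899 CPM in HRT control, with 5 of 6 LRT libraries below every HRT library. Its log2 fold change, LRT over HRT, was −0.39 ± 0.167 (SE; edgeR adjusted p = 0.231). It passed in a fit to the control groups alone (−0.41, edgeR adjusted p = 0.0436) and with libraries scaled by their totals without the 6 genes (−0.50, edgeR adjusted p = 0.0484), and the adjusted p ran from 0.0436 to 0.409 over 22 other settings. The genes mt-Co2 and mt-Atp8 were at −0.29 ± 0.172 and −0.32 ± 0.178 (edgeR adjusted p = 0.41 and 0.378), while mt-Cyb, mt-Co3 and mt-Atp6 lay between −0.04 and 0.09.

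**Figure D3:**
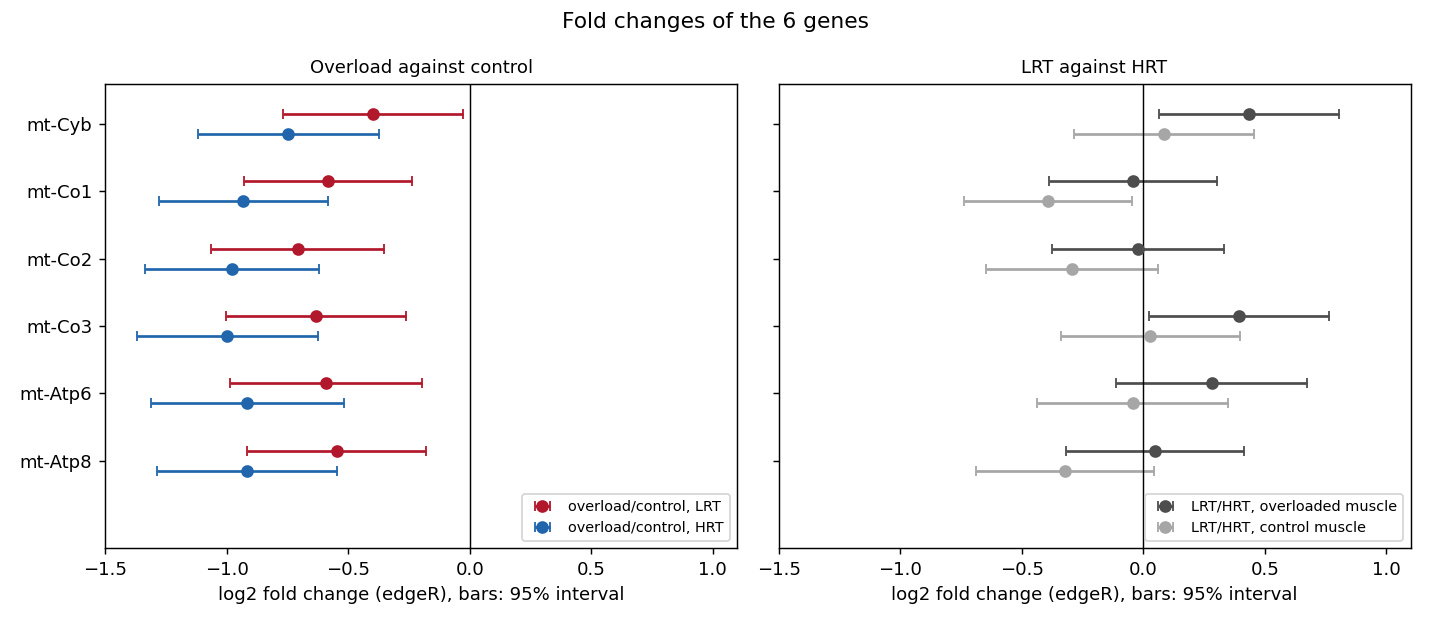
edgeR log2 fold changes of the 6 genes with 95% intervals (x axis). Left, overload over control within LRT and within HRT; right, LRT over HRT in overloaded and in control muscle. All overload changes lie below 0, and the line differences of mt-Co1, mt-Co2 and mt-Atp8 lie to the left of those of mt-Cyb, mt-Co3 and mt-Atp6 in both states.

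Ratios between the genes within a library do not depend on how libraries are scaled, and here the lines stood apart. The count of mt-Co1 was 4.37 to 6.03 times that of mt-Co3 in the 12 LRT libraries and 6.70 to 7.56 times in the 12 HRT libraries, overloaded and control together. On the log2 scale the ratio averaged 2.44 ± 0.104 in LRT overload and 2.88 ± 0.0387 in HRT overload (SD, n = 6 each), a difference of −0.433. In control muscle it averaged 2.41 ± 0.173 in LRT and 2.81 ± 0.0478 in HRT, a difference of −0.402. Overload itself moved it by 0.038 in LRT and 0.069 in HRT. No LRT library reached an HRT one, so the groups stay apart whichever single library is left out, which adds no further support. These ratios are of counts, not of transcripts per length. Whether reads of both lines were assigned to the genes alike cannot be seen from counts and was not tested. The ratios were looked at after the line differences had been seen, so they are given with no test. This one is 1 of 15. The log2 ratio of mt-Co2 to mt-Co3 also parted all libraries of the lines (−1.04 to −0.69 in LRT, −0.57 to −0.35 in HRT). So did that of mt-Co3 to mt-Atp8 (5.69 to 6.154 in LRT, 5.288 to 5.679 in HRT). Each of these ratios holds mt-Co3.

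The same split ran through the other genes. In LRT, mt-Cyb, mt-Co3 and mt-Atp6 were high relative to mt-Co1, mt-Co2 and mt-Atp8. Between the lines in overloaded muscle, 9 of 15 ratios did not overlap, and these were the 9 that set a gene of one trio against a gene of the other, with differences of 0.25 to 0.482 in size. The 6 ratios within a trio differed by 0.018 to 0.166. In control muscle 4 of the 9 did not overlap, with 0.227 to 0.457 for the ratios across and 0.045 to 0.138 for those within. The trios were drawn up from these same differences, so the parting of the 9 ratios from the 6 follows in part from that choice. The 15 ratios also share 6 genes and are not separate observations. No such count over ratios of other genes was made, either here or between overloaded and control muscle. As a contrast within complex IV, the log2 ratio of mt-Co1 to mt-Co2 was 3.32 ± 0.0819 in LRT overload and 3.34 ± 0.0443 in HRT overload, and 3.20 ± 0.117 in LRT control and 3.29 ± 0.0608 in HRT control. Within complex V, mt-Atp6 had 20.7 times the count of mt-Atp8 in LRT overload and 17.4 times in HRT overload, and 21.1 times in LRT control and 17.5 times in HRT control (means of log2 ratios). This pair is among the 9 ratios across the trios. Since both genes lie on a shared message, the division of reads between them is uncertain. Whether that division differed between the lines was not tested.

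**Figure D4:**
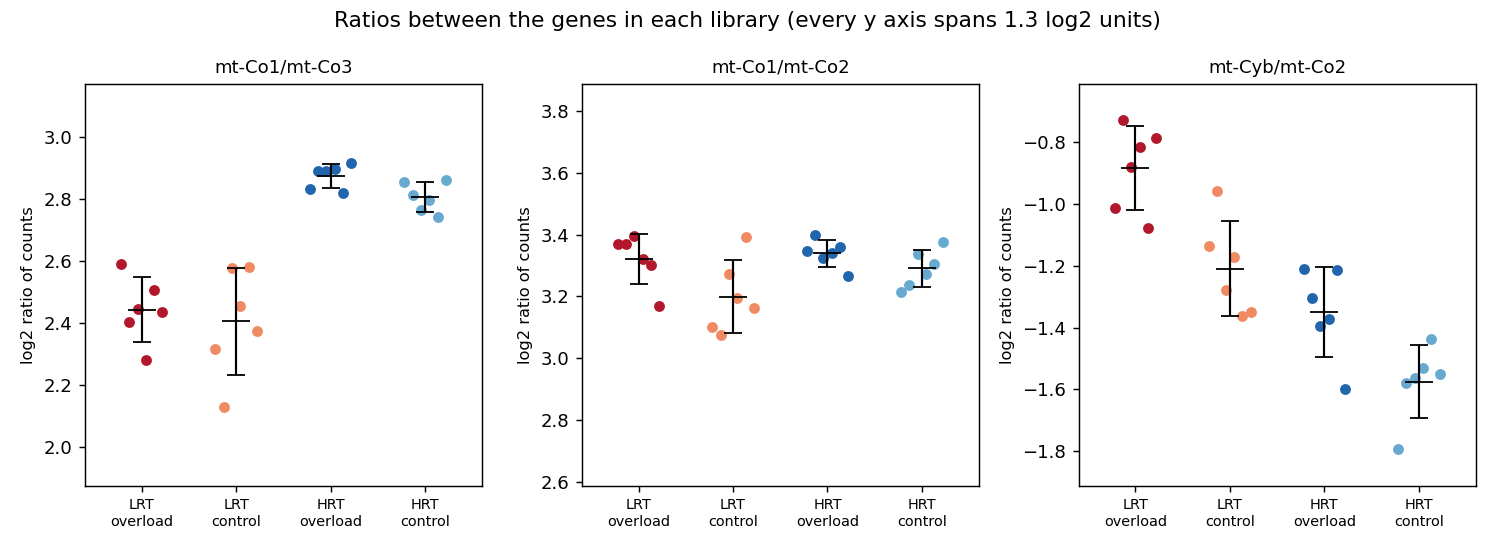
Log2 ratio of the counts of 2 genes in each library (y axis, 1.3 log2 units in every panel), by group, with the mean and 1 SD (n = 6). For mt-Co1 over mt-Co3 the 12 LRT libraries lie below the 12 HRT libraries; for mt-Co1 over mt-Co2 the lines overlap; for mt-Cyb over mt-Co2 the LRT libraries lie above the HRT libraries of the same state.

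Few ratios parted overloaded from control muscle, 1 of 15 in LRT and 2 of 15 in HRT, and they were picked out after all 15 had been seen. The ratio of mt-Cyb to mt-Co3 did so in both lines: its log2 value was −1.87 to −1.52 in LRT overload and −2.17 to −1.91 in LRT control, and −1.95 to −1.72 in HRT overload and −2.15 to −1.997 in HRT control. The differences were 0.241 in LRT and 0.247 in HRT. The ratio of mt-Cyb to mt-Co2 moved by 0.325 in LRT and 0.226 in HRT, with overlapping groups. The mt-Cyb to mt-Co3 ratio differed between the lines by 0.049 in overloaded and 0.055 in control muscle. The second ratio in HRT, mt-Co3 to mt-Atp6, differed by −0.083. The share of mt-Co1 in the counts of the 6 genes barely moved with overload, at 71.1% ± 1.37 in LRT overload and 70.8% ± 2.55 in LRT control, and at 75.3% ± 0.377 in HRT overload and 75.0% ± 0.556 in HRT control (SD, n = 6 each).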

How the data were processed

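RNA from plantaris muscle was sequenced from TruSeq libraries (Illumina), as the labels' protocols state. The authors deposited an unnormalized table of estimated counts for 31998 Ensembl IDs. Salmon 0.9.1 and, as builds, rn6 and Rnor_6.0 are named in the submitters' processing notes. Annotation, settings, strand and the handling of reads shared with nuclear copies of mitochondrial sequence are not given, so near-identical or overlapping genes are uncertain. The name table at hand (GRCr8) matched 0 IDs, so lists of nuclear subunits and cell types were not analysed here.

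Counts were rounded, filtered with filterByExpr (minimum count 10, minimum total 15; 16661 genes kept) and scaled by TMM. All 24 libraries entered 1 robust quasi-likelihood model by group (edgeR 4.0.16, R 4.3.3), with Benjamini-Hochberg adjustment over all genes. An SE is the size of the log2 fold change divided by the root of F. Nothing shows that replicates are separate rats, so p-values weigh differences against the spread between samples. If control muscles came from the operated rats, the main model left out that pairing. No 2 libraries of a group were duplicates (60 pairs, lowest chi-square per degree of freedom 12.4). The fit was also run on simulated counts in which few genes changed, which does not test the scaling of libraries in which many genes moved.

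The genes, lists and tests were chosen with earlier results of these data known. All 6 genes are named, with the 2 others most correlated with their mean. Alternatives were DESeq2 1.42.0, limma-voom (limma 3.58.1), other scaling, no filter, RIN, a replicate block, fits to the compared groups only, and single libraries left out. Figures used matplotlib 3.10.9 in Python 3.11.15.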

Additional observations from a re-analysis of the deposited data

How the results depend on the processing

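In LRT overload the count of 5 lower genes became 3 with library totals alone and 3 with totals without the 6 genes, 6 with RIN as a covariate, and 5 to 6 with single libraries left out. In HRT overload all 6 genes were called lower under all 22 other settings. In control muscle the line comparison gave 1 gene (mt-Co1) with totals without the 6 genes and 1 in a fit to the control groups alone. For the other comparisons no setting called any of the 6.

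Line differences near 0 changed sign, none of them past the threshold; the cause was not tested. In control muscle, library totals alone and totals without the 6 genes gave −0.0031 and −0.0197 for mt-Cyb and −0.0594 and −0.0758 for mt-Co3. With single libraries left out these genes ran from −0.0177 to 0.1654 and from −0.0657 to 0.114, and mt-Atp6 from −0.1502 to 0.0528. In overloaded muscle the same scalings gave −0.0801 and −0.0838 for mt-Atp8, RIN as a covariate gave 0.1229 for mt-Co1 and 0.1438 for mt-Co2, RIN with the replicate block gave 0.1041 and 0.1349, and limma-voom gave 0.0158 for mt-Co2. With single libraries left out, mt-Co1 ran from −0.1376 to 0.055, mt-Co2 from −0.1245 to 0.0752 and mt-Atp8 from −0.0647 to 0.1406.

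Over all genes, the line counts of 514 (overloaded) and 328 (control) ran from 115 to 2339 and from 154 to 619, and the count of 8 for the difference of responses from 1 to 140; the overload counts of both directions together stayed within 1.5 times. Their lower part did not: with library totals alone it was 1895 in LRT, against 4716, and 2241 in HRT, against 5204. The rule that every same-numbered pair correlates above 0.1 was met between no 2 groups: 12 of 36 pairs of deviations did (−0.176 to 0.544), 5 of 6 between LRT overload and HRT overload, where the other pair was at −0.147, and 0 of 24 libraries correlated best with its own number in each other group. With the replicate block 5 genes were called in LRT, 6 in HRT and 0 elsewhere, and the count for the difference of responses over all genes became 1.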

Other observations

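By counts, with no correction for length, mt-Co1 ranked 5 to 6 among all genes in LRT overload libraries and 4 to 6 in LRT control, and 4 to 5 in HRT overload and 3 to 4 in HRT control. The rank of mt-Atp8 was 1261 to 2325 in LRT overload and 900 to 1938 in LRT control, and 1392 to 2795 in HRT overload and 871 to 1077 in HRT control. The second gene by likeness of pattern, ENSRNOG00000030644, was at 440 ± 91.6 CPM in LRT overload and 815 ± 322 CPM in LRT control, and at 424 ± 146 CPM in HRT overload and 853 ± 81.9 CPM in HRT control (SD, n = 6 each). Its log2 fold changes were −0.89 in LRT and −1.01 in HRT (edgeR adjusted p = 0.00212 and 0.000573).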
